A study of Mus musculus with 30 samples.

Results

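The comparison set m6A peak lists of wild-type mouse embryonic stem cells (WT) against those of cells that carry the 5RK mutant of METTL14 in place of the cells' own protein (KO+5RK). It used 6 of the series' 15 peak lists, 3 for each line, from a series of 30 libraries. A 100 nt bin or a gene was counted as lost when all 3 WT lists and 0 of the 3 KO+5RK lists had called it, as gained in the reverse case, and as kept when all 6 lists had called it. Of the 44608 distinct bins called in any of the 6 lists, 2822 were lost, 125 were gained and 3435 were kept. The 6 lists named 11701 genes, of which 538 were lost, 51 were gained and 2811 were kept.

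All lines were C57BL/6 mouse embryonic stem cells grown in serum with leukemia inhibitory factor (LIF) on gelatin. WT is the parental genotype. KO+5RK carries a deletion of Mettl14 and a reintroduced METTL14 with the change that the labels call 5RK, so the lines differ by the deletion and the reintroduction as well as by the mutation. The nearest control for those steps is KO+WT, the same knockout with wild-type METTL14 put back. KO+13RK holds the form labelled 13RK, and KO has no METTL14. The labels give no clone, promoter or expression level for the reintroduced proteins. Separate cultures are not stated for the replicates either, and any p-value here is over the spread of lists that may be technical. The libraries are bulk RNA, in which fewer cells of a type and less RNA per cell cannot be told apart. Read depth per list is unknown, and a bin that was not called is not shown to lack m6A.

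N6-methyladenosine (m6A) is a methyl group placed on adenosines of messenger RNA by a complex in which METTL3 is the catalytic subunit and METTL14 its RNA-binding partner. The complex favours adenosines in the sequence DRACH, of which GGACU is the best-known form, and marked sites are concentrated near stop codons and in long internal exons. In embryonic stem cells the mark lies on many transcripts of the pluripotency network and affects how long they persist. The series title places arginine methylation on METTL14, and the enzymes that add methyl groups to arginine are the protein arginine methyltransferases.

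Sequences could be read for those bins that lay inside the RefSeq promoter windows of the GRCm38.p6 build, which run from 250 bases before to 50 after a gene's start. Of the bins called in all 3 WT lists, 18 lay wholly inside such a window on the gene's strand, of which 5 were lost and 5 kept. By the limits of the window, such a bin reaches at least as far before the annotated start as after it. The kept bins of Hnrnpdl lie directly side by side. The stretches below, written 5′ to 3′ as the RNA's sense strand in DNA letters, are shown because they hold the GGAC core of the m6A consensus, of which 1 match per stretch stands in capitals, with the following T where the 5 letters are GGACT. The Syncrip stretch holds a further GGAC, left in lower case.
Trip12, lost, chr1:84839373-84839389, minus strand: ggcgcGGACggaggcgc
Bmp7, lost, chr2:172939696-172939712, minus strand: ctgcaGGACagccactt
Syncrip, lost, chr9:88482520-88482540, minus strand: ctcggcagGGACTggggacgg
Hnrnpdl, kept, chr5:100039246-100039266, minus strand: ggcaagagGGACTgtggccct
Hnrnpdl, kept, chr5:100039314-100039334, minus strand: gcactaggGGACTgagggcgc
Gtf2h2, kept, chr13:100492479-100492498, minus strand: agtgaggcGGACaggagaag
Man2a1, kept, chr17:64601472-64601491, plus strand: gtttgtggGGACctttgcct

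Trip12 encodes a ubiquitin ligase, Bmp7 a secreted signalling ligand and Syncrip an RNA-binding protein. Among the kept genes, Hnrnpdl encodes an RNA-binding protein that regulates splicing, Gtf2h2 a subunit of the transcription factor TFIIH and Man2a1 a mannosidase of the Golgi. GGAC, searched on the sense strand only, stood in 3 of the 5 lost bins and 4 of the 5 kept bins. It stood in 12 of the 18 bins of the 3 WT lists (66.7%) and in 30.6% of all 98553 stretches of 100 bases in the promoter windows. GGACT, which contains GGAC, stood in 1 lost bin, in 2 kept bins, in 4 of the 18 (22.2%) and in 9.48% of all stretches. With 5 bins on each side these counts are a description, and lost and kept bins could not be told apart by either motif.

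The WT lists held 23164, 22668 and 22217 called bins and the KO+5RK lists 13013, 12706 and 11174. No KO+5RK list came near the shortest WT list, and the mean differed by -45.8% (22683 ± 474 against 12298 ± 985, SD, n = 3 each). Genes with a bin numbered 7788, 7896 and 7854 in the WT lists and 5922, 6112 and 5644 in the KO+5RK lists. Here too the lists did not overlap, and the means differed by -24.9% (7846 ± 54.4 against 5893 ± 235). The number of bins per called gene was 2.97, 2.87 and 2.83 in WT and 2.20, 2.08 and 1.98 in KO+5RK, a difference of -27.9%. Each of these 3 differences had p = 0.1 in the two-sided exact permutation test, which is the smallest p that 3 lists against 3 can give, and 0.125 after Benjamini-Hochberg adjustment over 5 measures. No comparison of means between these lines could therefore pass 0.05. With every list cut to the 11174 bins of smallest p, the KO+5RK lists held more genes than the WT lists, by 393 per list, and bins per called gene differed by -0.152 in place of -0.806.

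**Figure D1:**
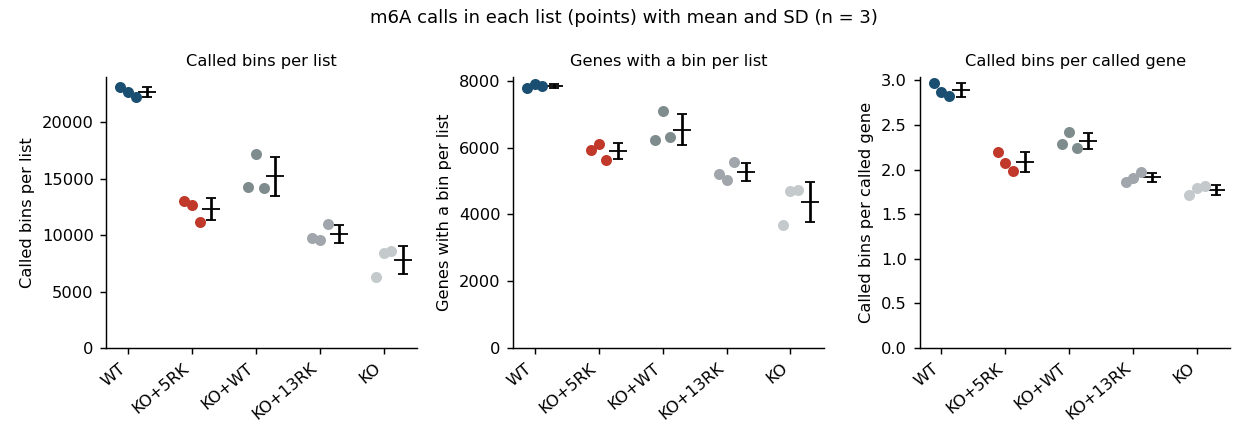
Called bins, genes with a bin and bins per called gene in each of the 15 lists, with the 5 lines on the horizontal axis; points are lists and the bars give mean and SD (n = 3). In all 3 panels every KO+5RK list (red) lies below every WT list (dark blue).

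Neighbouring bins were also fewer. Joined into runs of adjacent bins on a strand, the calls made 14758 ± 45.3 runs per WT list and 9325 ± 548 per KO+5RK list, with 1.54 ± 0.0362 and 1.32 ± 0.0349 bins per run (both with an exact permutation p of 0.1, n = 3). Runs of a single bin were 67.6 ± 1.47% of runs in WT and 77.9 ± 1.93% in KO+5RK, again without overlap (exact permutation p = 0.1). This run measure was added after the data had been seen.

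Of the 11324 bins called in all 3 WT lists, 2822 were lost (24.9%), 2591 were in 1 KO+5RK list, 2476 in 2 and 3435 in all 3. Of the 4185 bins called in all 3 KO+5RK lists, 125 were gained (2.99%). Of the 5631 genes in all 3 WT lists, 538 were lost (9.55%), and of the 3219 genes in all 3 KO+5RK lists, 51 were gained (1.58%). Losses thus outnumbered gains for bins and for genes. The excess moved with list length: with every list at 11174 bins, 835 bins were lost and 391 gained, whereas 190 genes were lost and 220 gained. At equal length the lost bins still outnumbered the gained ones, and the genes did not. The rule also needs all 3 lists of a line to agree, and lists agreed less within KO+5RK, as given below. The part of that in the excess was not tested. Leaving out any 1 list loosens a rule of all against none, and gave 3381 to 4518 lost and 184 to 403 gained bins. The share of bins common to a pair of lists, out of all bins in either, had a median of 0.450 within WT, 0.304 within KO+5RK and 0.285 between the lines. For genes the medians were 0.670, 0.501 and 0.528, and the pairs between the lines (0.488 to 0.539) overlapped those within KO+5RK (0.497 to 0.528).

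**Figure D2:**
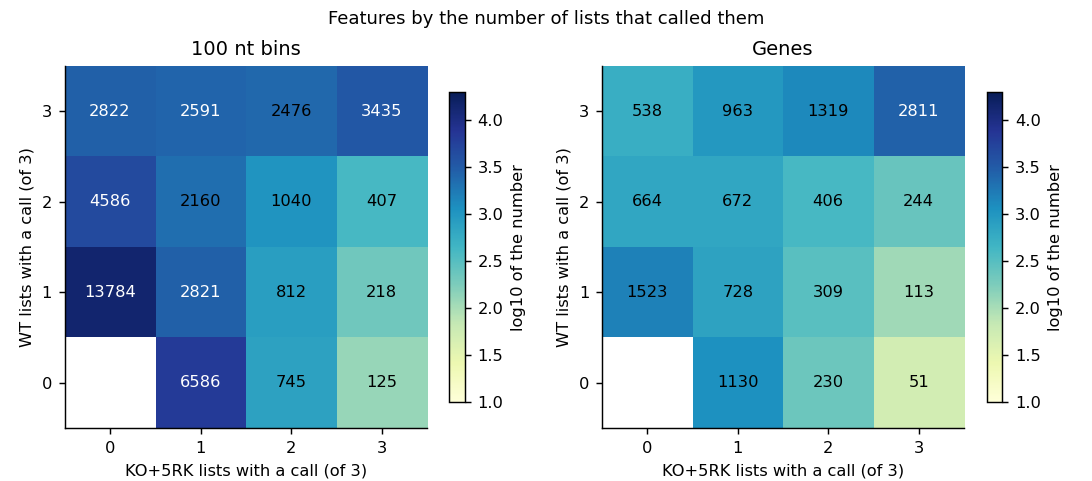
Number of bins (left) and genes (right) by how many WT lists (vertical axis) and KO+5RK lists (horizontal axis) called them; colour is the log10 of the number printed in each square. The top left squares are the 2822 lost bins and 538 lost genes, and the bottom right squares the 125 gained bins and 51 gained genes.

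Lost and gained bins were sorted by whether the other line's lists called their gene at some bin. No such share is given for all bins of either line, so these shares are a description without a background. Of the 5631 genes in all 3 WT lists, 2811 (49.9%) were in all 3 KO+5RK lists. Of the 2822 lost bins, which fell in 1889 genes, 1269 (45.0%) were in 745 genes that all 3 KO+5RK lists still called, and 488 (17.3%) were in genes that none of them called. Of the 125 gained bins, 61 (48.8%) were in genes of all 3 WT lists and 26 in genes of 0 WT lists. Over the 2811 genes kept in all 6 lists, the mean number of bins per list was 12463 ± 221 in WT and 7898 ± 574 in KO+5RK, a difference of -36.6% (exact permutation p = 0.1, n = 3 per line). In 683 of these genes (24.3%) every KO+5RK list had fewer bins than any WT list, and in 17 (0.605%) every KO+5RK list had more. Genes with few bins in WT were lost more often: 131 of 550 genes with 1 bin per WT list (23.8%), 245 of 1688 with over 1 to 2 (14.5%), 130 of 2078 with over 2 to 4 (6.26%), 27 of 1089 with over 4 to 8 (2.48%) and 5 of 226 with over 8 (2.21%). A gene with 1 bin needs only that bin to go uncalled, so this order is in part fixed by the rule.

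Lost bins were weaker in WT. By the within-list percentile of the authors' enrichment value in the WT lists, the median was 38.3 for lost bins, 44.3 for bins still called in 1 KO+5RK list, 47.6 for those in 2 and 55.1 for kept bins. Of the 1787 bins below percentile 20, 686 were lost (38.4%), against 631 of 3105 between percentiles 40 and 60 (20.3%) and 236 of 1071 above percentile 80 (22.0%). The share lost was thus highest among the weakest bins and similar from the middle range up. These percentiles come from lists that the rule used, so they are a description. Of the lost bins, 229 (8.11%) stood directly beside a kept bin, against 41.1% of kept bins. Bins called in 1 and in 2 KO+5RK lists were between, at 16.2% and 23.0%. This order is in part fixed by the rule, since a gene with a kept bin is called in all 3 KO+5RK lists. Only 1269 lost bins (45.0%) were in genes so called, and the others could have no kept neighbour in their own gene. The neighbours also come from the lists that the rule used, so these shares too are a description.

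By place in the gene, the comparison near gene ends depended on the window. Bins within 2000 nt of the gene end made up 34.5 ± 0.395% of placed bins in WT and 34.4 ± 0.823% in KO+5RK (exact permutation p = 0.9, adjusted 0.9, n = 3 per line), and the lists overlapped. Within 1000 nt of the end the share was lower in every KO+5RK list, by a mean difference of -0.75 percentage points (exact permutation p = 0.1), and at equal list length the 2000 nt share differed by -1.31 (exact permutation p = 0.3). The number of bins within 2000 nt was 6877 ± 253 in WT and 3647 ± 226 in KO+5RK. Bins within 500 nt of the gene start took 4.13, 5.18 and 4.91% of placed bins in the WT lists and 7.23, 5.60 and 5.60% in the KO+5RK lists. These did not overlap (exact permutation p = 0.1, adjusted 0.125), yet the number of bins near starts was lower in KO+5RK too, at 654 ± 134 against 942 ± 93.6. Among bins of all 3 WT lists, 52 of 339 near a start were lost (15.3%), 966 of 3573 near an end (27.0%) and 1544 of 6031 elsewhere in the gene (25.6%). Of the 109 gained bins that could be placed, 13 were near a start (11.9%), against 2.03% of lost and 4.31% of kept bins. For comparison, bins near gene starts took 16.3, 17.9 and 18.1% in the KO lists, which have no METTL14.

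The 9 lists of the other lines, which the rule did not use, each held a minority of the lost bins. KO+WT lists called 31.9, 37.1 and 27.9% of the 2822 lost bins, KO+13RK lists 10.1, 8.47 and 11.9%, and KO lists 5.14, 6.95 and 6.84%. The 3 lines did not overlap, in the order KO+WT above KO+13RK above KO (each pair exact permutation p = 0.1, 0.129 adjusted over 9 pairs). For all bins of the 3 WT lists, the mean shares were 65.5% per KO+WT list, 41.8% per KO+13RK list and 14.5% per KO list. The order is also that of list length, with means of 15206, 10105 and 7777 bins per list in these lines, and the part of length in it was not tested. Of the lost bins, 819 were in 1 KO+WT list, 583 in 2 and 250 in all 3 (8.86%), and 1170 (41.5%) were in 0 of them. In the KO+13RK lists 2143 lost bins (75.9%) were absent from all 3, and in the KO lists 2527 (89.5%). For the 41.5% called in 0 KO+WT lists, the mutation and the steps of knockout and reintroduction cannot be told apart. For the lost bins called in 1 or more KO+WT lists this was not tested either. The KO+WT lists were longer on average than the KO+5RK lists, at 15206 against 12298 bins, and most of these bins were not in all 3.

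Bins that KO+5RK kept were called nearly throughout in KO+WT. Kept bins had 92.5 ± 0.888% called per KO+WT list, 78.0 ± 2.48% per KO+13RK list and 24.7 ± 1.93% per KO list (SD, n = 3 each). Bins in 1 KO+5RK list stood at 57.6, 25.1 and 10.02% and those in 2 lists at 74.2, 45.0 and 14.2%, so that in each line the share was higher with each further KO+5RK list. The 125 gained bins had a different order: KO+WT lists called 32.8, 41.6 and 50.4% of them, KO+13RK lists 40, 47.2 and 49.6%, and KO lists 27.2, 34.4 and 35.2%. Here KO+WT and KO+13RK overlapped (exact permutation p = 0.7, adjusted 0.7, n = 3 per line), and so did KO and KO+WT (exact permutation p = 0.3, adjusted 0.338).

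**Figure D3:**
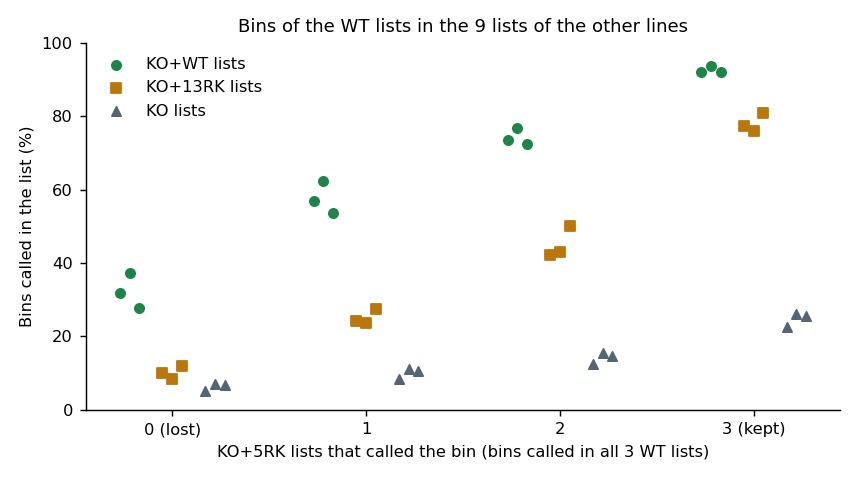
Share of bins called in each list of KO+WT, KO+13RK and KO (vertical axis, %), for the bins of all 3 WT lists grouped by how many KO+5RK lists called them (horizontal axis); each point is a list. The shares run from 27.9 to 37.1% in KO+WT for lost bins and average 92.5% there for kept bins, with KO lowest in every group.

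The peak lists cannot check the deletion or the mutant protein. Mettl14 itself had 0 bins in each WT list, 1, 0 and 1 in the KO+5RK lists and 0 in the other 9. Mettl3, the catalytic partner, had 0 bins in each WT list and 1, 0 and 0 in KO+5RK. Of the stem cell markers, Sox2, Nanog, Klf4, Esrrb and Tfcp2l1 had bins in all 6 lists, and Zfp42 in all but 1 KO+5RK list. Pou5f1, the gene of OCT4, had none in WT and 1, 0 and 2 bins in KO+5RK, at a gene known to be highly expressed in these cells. Of the wider list of 37 pluripotency genes, 17 had bins in all 6 lists and 5 were at 0 in all 6.

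Of the markers of other cells, 13 of 22 fibroblast and matrix genes were at 0 in all 6 lists, including Col1a2, Col3a1, Thy1, Lum, Dcn, Postn and Acta2, and 12 of 19 primed and germ layer genes were too, including Fgf5, T, Eomes, Sox17 and Pax6. The fibroblast and matrix list summed to 37, 29 and 31 bins in WT and 4, 1 and 4 in KO+5RK. Nearly all of it was Fn1, the gene of the matrix protein fibronectin, with 30, 23 and 23 bins in WT against 1, 0 and 1 in KO+5RK. Fn1 was as low in the other lines, with 1, 3 and 1 bins in KO+WT, 0 in each KO+13RK list and 0, 2 and 3 in KO. Of the 4 members in all 3 WT lists 1 was lost (25%, against 9.55% of all genes). It was Pdgfrb, a growth factor receptor of mesenchymal cells, with 2, 1 and 1 bins in WT. Without Fn1 the list held 7, 6 and 8 bins in WT and 3, 1 and 3 in KO+5RK. Its part in the other differences was not tested. The primed and germ layer list held 1, 7 and 4 bins in WT and 3, 7 and 5 in KO+5RK, which overlapped, and Dnmt3b, a DNA methyltransferase, held 1, 3 and 2 of these and 2, 4 and 2.

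Gene lists were read against all genes, where 9.55% of those in all 3 WT lists were lost and the KO+5RK lists held 54.2% of the WT number of bins. Cutting each list to its 11174 bins of smallest p holds the longer WT lists to a stricter p and fixes the total. Numbers at equal length therefore compare shares of a fixed total, and a higher one is not a gain of bins. A gene list above the 54.2% tends to stand above WT there by construction. Because list lengths differ so much, the number at equal length is given beside the counts. For the fibroblast and matrix list it was 17, 10 and 14 bins in WT and 4, 1 and 4 in KO+5RK, without overlap, and for the primed and germ layer list 0, 0 and 2 against 2, 7 and 5. Single members below that were not picked by the rule for named genes serve as examples and were chosen after their values had been seen. No list was tested as a set, and a share near the background is not a result about that list.

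The 9 genes of the m6A writer complex had 16, 21 and 18 bins in WT and 10, 8 and 9 in KO+5RK, 49.1% of WT. Of its 4 genes in every WT list 0 were lost. Wtap, the subunit that brings the catalytic pair to nuclear speckles, had 5, 5 and 6 bins in WT and 3, 0 and 2 in KO+5RK. Mettl16, a separate methyltransferase that acts on the Mat2a transcript, had 3 bins in each WT list and 1, 1 and 0 in KO+5RK. Virma, the large scaffold subunit, overlapped between the lines at 3, 6 and 4 against 2, 5 and 4. At equal list length the writer list had 9, 10 and 8 bins in WT and 10, 8 and 9 in KO+5RK.

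Mat2a, which makes S-adenosylmethionine and whose transcript carries METTL16 sites, had 6, 5 and 7 bins in WT and 5 in each KO+5RK list. It had 4 to 6 bins in every other list, KO included.

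Readers and erasers held 43, 38 and 39 bins in WT and 24, 29 and 24 in KO+5RK (64.2% of WT, no overlap), with 0 of 10 genes lost. Prrc2a, a reader, had 12, 8 and 9 bins in WT and 7, 5 and 4 in KO+5RK. Hnrnpc, an RNA-binding protein that reads sites opened by m6A, had 3 bins in each WT list and 1, 2 and 2 in KO+5RK. The cytoplasmic reader Ythdf3 had 4, 7 and 6 against 4, 0 and 3, and the eraser Fto 5, 3 and 4 against 0, 3 and 4, so both overlapped between the lines. At equal length the list stood at 22.3 bins in WT and 24.3 in KO+5RK and overlapped.

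Among arginine methyltransferases and their partners, 2 of 10 genes were lost (20%, against 9.55% of all genes). Prmt2, a type I enzyme, had 2, 1 and 1 bins in WT, and Jmjd6, an oxygenase reported to act on arginine and lysine, had 1, 3 and 1. The main type I enzyme Prmt1 had 3, 2 and 2 bins in WT and 1, 0 and 0 in KO+5RK, without overlap. Carm1, another type I enzyme, had 4 bins in each WT list and 1, 3 and 1 in KO+5RK. Prmt5, the main symmetric dimethyltransferase, had 5, 4 and 5 in WT and overlapped KO+5RK at 1, 3 and 4. The list as a whole held 44.6% of its WT bins (27.7 ± 2.52 to 12.3 ± 2.89), and at equal length 14.3 against 12.3, with overlap. At equal length 0 genes of this list were lost, and neither Prmt2 nor Jmjd6 met the rule.

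**Figure D4:**
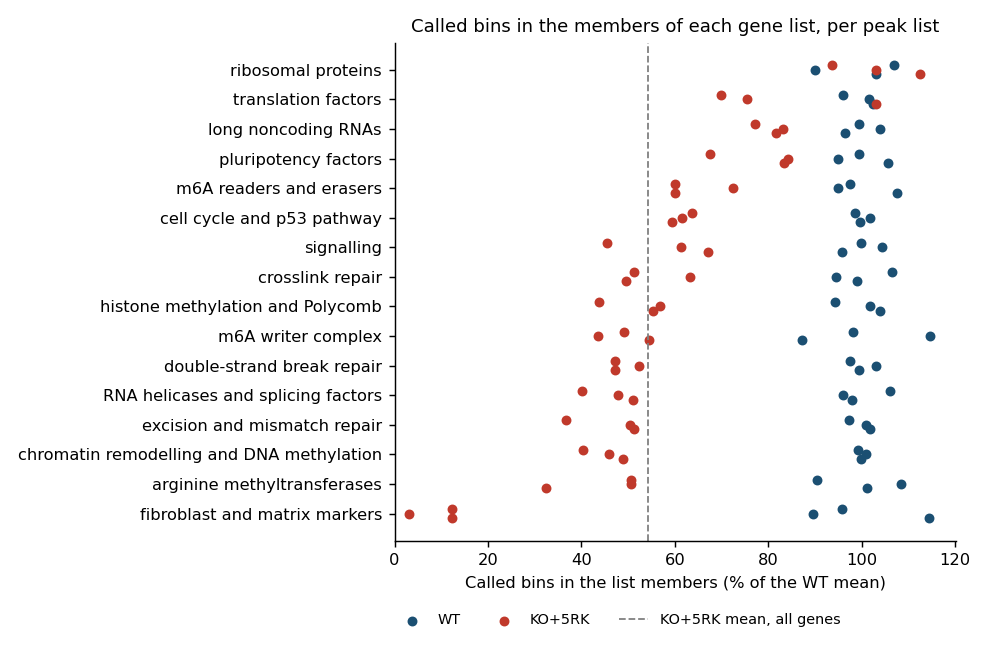
Bins in the members of 16 gene lists (vertical axis) in each WT and KO+5RK peak list, as a percent of the list's own WT mean (horizontal axis); the dashed line is the KO+5RK mean over all genes, 54.2%. Ribosomal proteins and translation factors overlap between the lines, and fibroblast and matrix markers, mostly Fn1, lie lowest. The primed and germ layer list, with 1 to 7 bins, is not drawn.

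The pluripotency factors had 119, 107 and 112 bins in WT and 94, 95 and 76 in KO+5RK, 78.4% of WT and so above the 54.2% of all genes. Of 23 genes 1 was lost (4.35%), Lin28a, an RNA-binding protein that blocks let-7 maturation, with 2, 1 and 2 bins in WT. Lin28a was weak in WT, at percentile 10.9, and had 2, 0 and 0 bins in KO+WT, 1 in each KO+13RK list and 0 in each KO list. At equal length 0 genes of this list were lost. Of the 19 members in all 3 KO+5RK lists 1 was gained, against 51 of 3219 (1.58%) over all genes. The gained member was Dppa3, a maternal-effect factor marking naive cells, with 2, 1 and 2 bins in KO+5RK. It had 2, 1 and 0 bins in KO+WT, 0, 1 and 1 in KO+13RK and 1, 2 and 2 in KO. Sox2, a core factor, had 7, 5 and 7 bins in WT and 5, 5 and 3 in KO+5RK, which overlapped at 5. Esrrb, an orphan nuclear receptor of the naive state, had 9, 8 and 9 in WT and 6, 7 and 3 in KO+5RK, without overlap. It had 9, 14 and 10 bins in KO+WT, 2, 4 and 2 in KO+13RK and 11, 9 and 8 in KO. The Esrrb lists of KO, which has no METTL14, thus overlapped WT. At equal list length the mean difference of Esrrb between KO+5RK and WT was 0. Nanog had 2 bins in each WT list and 3, 2 and 3 in KO+5RK, and Klf4 had 2, 1 and 3 against 1 in each. Nr5a2, another nuclear receptor, had 7 bins in each WT list and 6, 4 and 4 in KO+5RK. Il6st, the shared receptor chain of LIF signalling, had 8 in each WT list and 6, 6 and 3 in KO+5RK. Trim28, a corepressor of retroelements, overlapped at 19, 18 and 18 against 13, 27 and 13. At equal list length, where the total is fixed, the whole list took a larger share in KO+5RK. It had 60.7 bins per list in WT and 73.7 in KO+5RK, and the lists did not overlap.

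Ribosomal protein genes had as many bins in both lines, 55, 48 and 57 in WT and 60, 55 and 50 in KO+5RK. Of the 21 members in all 3 WT lists 1 was lost, Rps21 (4.76%, against 9.55% of all genes). Of the 18 members in all 3 KO+5RK lists 2 were gained, Rpl27a and Rps26. Over all genes 51 of 3219 were gained (1.58%). Rpl27a had 4, 1 and 2 bins in KO+5RK, and in the other lines 0, 0 and 1 in KO+WT, 2, 0 and 0 in KO+13RK and 0, 1 and 1 in KO. Rpl8 had 1 bin in each WT list and 4, 4 and 2 in KO+5RK. Rpl4, a large subunit protein, had 3, 7 and 6 against 10, 7 and 9, which touched at 7. Translation factors also overlapped, with 129, 128 and 121 bins in WT and 130, 95 and 88 in KO+5RK, and 5 of their 76 bins in all 3 WT lists were lost (6.58%, against 24.9% of all bins). Eef2, the translocation factor, had 20, 25 and 20 bins in WT and 27, 14 and 15 in KO+5RK, and Eif3a, an initiation factor subunit, 13, 14 and 19 against 18, 13 and 13. Of 31 translation factor genes 1 was lost (3.23%), Eif2ak4, the amino acid sensing kinase GCN2. It had 2, 2 and 3 bins in WT and 0, 5 and 1 in KO+WT. At equal length both lists were higher in KO+5RK without overlap, with 38, 32 and 50 against 20, 19 and 24 bins for ribosomal proteins and 94, 87 and 88 against 49, 65 and 60 for translation factors.

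The long noncoding RNAs had 65, 70 and 67 bins in WT and 55, 56 and 52 in KO+5RK (80.7% of WT), with 0 of 12 genes lost. Malat1, a nuclear RNA of speckles, had 22, 30 and 31 bins in WT and overlapped KO+5RK at 28, 24 and 21. Neat1, the scaffold of paraspeckles, had 2, 3 and 3 against 4, 3 and 3. Dleu2, a host of miRNAs, had 6, 6 and 5 bins in WT and 2, 1 and 3 in KO+5RK, and Pvt1 had 2 in each WT list and 0, 1 and 0. At equal length the list was higher in KO+5RK, 48.3 against 42.0 bins, without overlap.

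RNA helicases and splicing factors had 203, 199 and 220 bins in WT and 106, 99 and 83 in KO+5RK, 46.3% of WT. Of their 143 bins in all 3 WT lists, 55 were lost (38.5%, against 24.9%). Srrm2, a large scaffold of nuclear speckles with serine and arginine repeats, held 70, 61 and 71 of the WT bins and 26, 13 and 5 of the KO+5RK bins. Without Srrm2 the list held 58.1% of its WT bins, near the 54.2% of all genes. Rbfox2, a regulator of alternative splicing, had 11, 12 and 9 bins in WT and 0, 1 and 5 in KO+5RK. Of 33 genes 1 was lost (3.03%), Prpf4b, a kinase of the spliceosome. It had 5, 2 and 3 bins in WT and 0, 1 and 2 in KO+WT. It had 0, 2 and 2 bins in both KO+13RK and KO. The helicase Ddx17 had 10, 12 and 11 bins in WT and 7, 9 and 7 in KO+5RK. At equal length the list was lower in KO+5RK, 85.3 against 104 bins, without overlap.

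By the share of genes lost, DNA repair was near the background. In crosslink repair 3 of 25 were lost (12%), in double-strand break repair 3 of 34 (8.82%) and in excision and mismatch repair 3 of 29 (10.3%), with 54.7, 48.9 and 46.2% of WT bins. Of their bins in all 3 WT lists, 16 of 48 (33.3%), 21 of 85 (24.7%) and 20 of 63 (31.7%) were lost, against 24.9% of all bins. Polk, the translesion polymerase kappa, had 4, 5 and 3 bins in WT, 1, 3 and 2 in KO+WT, 2, 0 and 2 in KO+13RK and 0 in KO. Ercc6, the CSB protein of transcription-coupled repair, had 4, 9 and 8 in WT, 3, 4 and 5 in KO+WT, 1, 0 and 2 in KO+13RK and 0, 1 and 0 in KO. Both genes thus had bins in each KO+WT list and in 0 KO+5RK lists. Palb2, which joins BRCA1 to BRCA2, had 1, 2 and 5 bins in WT, and Hltf, a helicase that remodels stalled forks, 1, 4 and 1. Rnf168, a ubiquitin ligase that marks histone H2A at breaks, had 3, 3 and 2 bins in WT. It had 1 in each KO+WT list and 1, 1 and 2 in KO. Chek1, the checkpoint kinase of the replication stress response, had 2, 2 and 1 in WT, 2, 1 and 2 in KO+WT and 1, 3 and 0 in KO. Rad23b, a damage sensor, had 2, 2 and 1, and the flap nuclease Fen1 had 2, 3 and 1. At equal length the double-strand break list stayed lower in KO+5RK, 66.0 against 86.0 bins without overlap, the crosslink list turned to 52, 61 and 56 against 49, 45 and 56 with overlap, and excision and mismatch repair overlapped at 46.0 against 52.7.

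Chromatin genes had fewer bins in KO+5RK, but few of them were lost altogether. In histone methylation and Polycomb 2 of 48 genes were lost (4.17%), with 271 ± 13.6 bins per list in WT and 141 ± 19.2 in KO+5RK (52.0%). The lost genes were Kdm4c, a histone H3 demethylase, with 1, 1 and 2 bins in WT, and Ezh2, the catalytic subunit of Polycomb repressive complex 2, with 1, 2 and 1. Ezh2 had bins in all 3 KO+WT lists and all 3 KO lists. In chromatin remodelling and DNA methylation 3 of 41 genes were lost (7.32%) and bins stood at 45.0% of WT (268 ± 2.52 to 121 ± 11.7). Ino80, the motor of a remodelling complex, had 4, 3 and 3 bins in WT, Smarcb1, a core subunit of the BAF complex, 2, 3 and 2, and the acetyltransferase Kat2b 1, 1 and 2. At equal length this list remained lower in KO+5RK, 118 against 156 bins without overlap, and the histone methylation list overlapped at 136 against 151.

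In the cell cycle and p53 pathway 6 of 32 genes were lost (18.8%, against 9.55%), while its bins stood at 61.5% of WT. Rb1, the retinoblastoma gene, had 2, 1 and 2 bins in WT and 0 in each of the other 12 lists. Rbl2, its relative p130, had 2, 3 and 1 in WT. Mad2l1, of the spindle checkpoint, had 2, 2 and 4 in WT and 3, 5 and 1 in KO+WT, and the mitotic cyclin Ccnb1 had 2, 1 and 1. At equal length 4 genes of the list met the rule for lost, and its bins were 53.3 in WT and 54.3 in KO+5RK. Signalling genes had 3 of 34 lost (8.82%), namely Tcf7l2, a transcription factor of the Wnt pathway with 1 bin in each WT list, the JAK family kinase Tyk2 and the BMP target Id1. Their bins stood at 58.0% of WT, but 151, 177 and 171 of the WT bins were listed under Fgfr2, whose bins span 51 other genes and are uncertain. Without Fgfr2 the signalling list stood at 47.8% (136, 136 and 128 bins in WT and 70, 70 and 51 in KO+5RK). At equal length the whole signalling list overlapped, with 166, 184 and 184 bins in WT and 185, 173 and 136 in KO+5RK.

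Highest in WT enrichment percentile among the lost genes were Gm44686, Disp1, AW554918, Acot7, Lpar1, Magi3, Mast4, Cux2, Gm29427 and Add3, with percentiles of 96.8 to 98.2. Magi3, a scaffold of cell junctions, had 5, 4 and 7 bins in WT and 0 in each of the other 12 lists. Cux2, a homeobox factor, had 5, 4 and 6 in WT and 0, 0 and 3 in KO+WT. Mast4, a microtubule-associated kinase, had 8, 3 and 2, and Disp1, which releases Hedgehog ligands, had 1, 2 and 6. Lpar1, a receptor for lysophosphatidic acid, had 2, 3 and 1 bins in WT and 1, 0 and 3 in KO+WT. Add3, a protein of the membrane skeleton, had 3, 5 and 2 in WT and 0, 2 and 4 in KO. Gm29427 had 5, 3 and 3 in WT and 0, 3 and 3 in KO+WT, and Gm44686 had 3, 2 and 3 in WT and 0 in each KO+WT list.

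Other lost genes, named after their values were seen, had more bins. Mki67, which marks proliferating cells, had 10, 9 and 17 bins in WT, 0 in each KO+5RK list and 0, 0 and 1 in KO+WT. Prr14l had 10, 7 and 12 in WT and 2, 6 and 3 in KO+WT. Mbnl2, a splicing regulator, had 8, 10 and 9 in WT and 1, 4 and 1 in KO+WT. Sfi1, a centrosomal protein, had 9 in each WT list, 0 in each list of the complemented lines and 2 in each KO list. Abca1, the cholesterol exporter, had 7, 6 and 6 in WT and 1, 0 and 0 in KO+WT. Cdh1, the gene of E-cadherin, had 2, 3 and 2 in WT and 0, 0 and 1 in KO+WT. For Mki67, Sfi1, Abca1 and Cdh1 the KO+WT lists were thus about as empty as the KO+5RK lists.

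Gm47283 on the Y chromosome stood apart. It had 25, 25 and 24 bins in WT, 0 in each KO+5RK, KO+WT and KO+13RK list, and 25, 23 and 23 in KO. Its bins, chrY:90811139-90814038 in GRCm38, made up all 23 Y bins called in all 3 WT lists, and all 23 were lost. Among other Y genes, Eif2s3y had 0 bins in each WT list and 2, 1 and 1 in KO+5RK, Uty 0 against 0, 1 and 3, and Ddx3y 0 against 0, 0 and 1. Loss on other chromosomes ran from 17.8% of bins on chromosome 12 to 34.8% on chromosome 14. On the mitochondrial chromosome 0 of 21 bins were lost and 7 were gained, with 24, 24 and 34 bins per WT list and 43, 35 and 33 per KO+5RK list.

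Among genes called in all 6 lists, the largest differences in bins are given here with 4 loci that span many other genes set aside. The ranking was by the number of bins, so it favours genes with many bins in WT. The bins of Dst span 2 other genes and those of Akap12 span 1. Dst, a giant linker of the cytoskeleton, had 85, 75 and 77 bins in WT and 18, 8 and 3 in KO+5RK. KO+WT had 18, 35 and 21, KO+13RK 0, 0 and 6, and KO 38, 28 and 33, so that every KO list had more Dst bins than any KO+5RK list. Srrm2, described above, had 38, 36 and 33 bins in KO+WT, 11, 12 and 19 in KO+13RK and 41, 27 and 42 in KO, again with each KO list above each KO+5RK list. Akap12, an anchor for protein kinase A, had 49, 46 and 51 in WT and 27, 18 and 3 in KO+5RK, beside 23, 30 and 23 in KO+WT and 21, 24 and 28 in KO. Replicate 3 of KO+5RK was the lowest of its line for each of these genes, and it was also the shortest list.

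Kat6b, a histone acetyltransferase, had 26, 31 and 28 bins in WT, 13, 8 and 2 in KO+5RK, 26, 30 and 23 in KO+WT and 2, 6 and 2 in KO+13RK. Its KO+WT lists overlapped WT, and the KO+5RK lists lay below both. The KO lists of Kat6b had 12, 15 and 16 bins and overlapped those of KO+5RK. Ankrd11, a chromatin regulator that recruits histone deacetylases, had 24, 27 and 23 in WT and 2, 5 and 2 in KO+5RK, but only 5, 6 and 2 in KO+WT. Prrc2c, a large protein involved in stress granules, had 25, 24 and 24 in WT, 5, 3 and 3 in KO+5RK and 3, 9 and 5 in KO+WT. For Ankrd11 and Prrc2c the KO+WT lists overlapped those of KO+5RK. At equal list length all 6 genes remained lower in KO+5RK, with differences of -43.3 bins per list for Dst, -28.3 for Srrm2 and -9.67 for Ankrd11.

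The other 4 of the 10 largest differences were Gm20388, Fgfr2, Gm26904 and Gm26561, whose bins lie across 140, 51, 17 and 9 other genes and cannot be assigned with certainty. Gm20388 had 773, 864 and 820 bins in WT and 669, 441 and 399 in KO+5RK. The 4 genes whose bins span over 1000000 nt, Gm20388 and Fgfr2 among them, held 4.11 to 4.70% of bins in the WT lists and 4.42 to 6.22% in the KO+5RK lists.

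**Figure D5:**
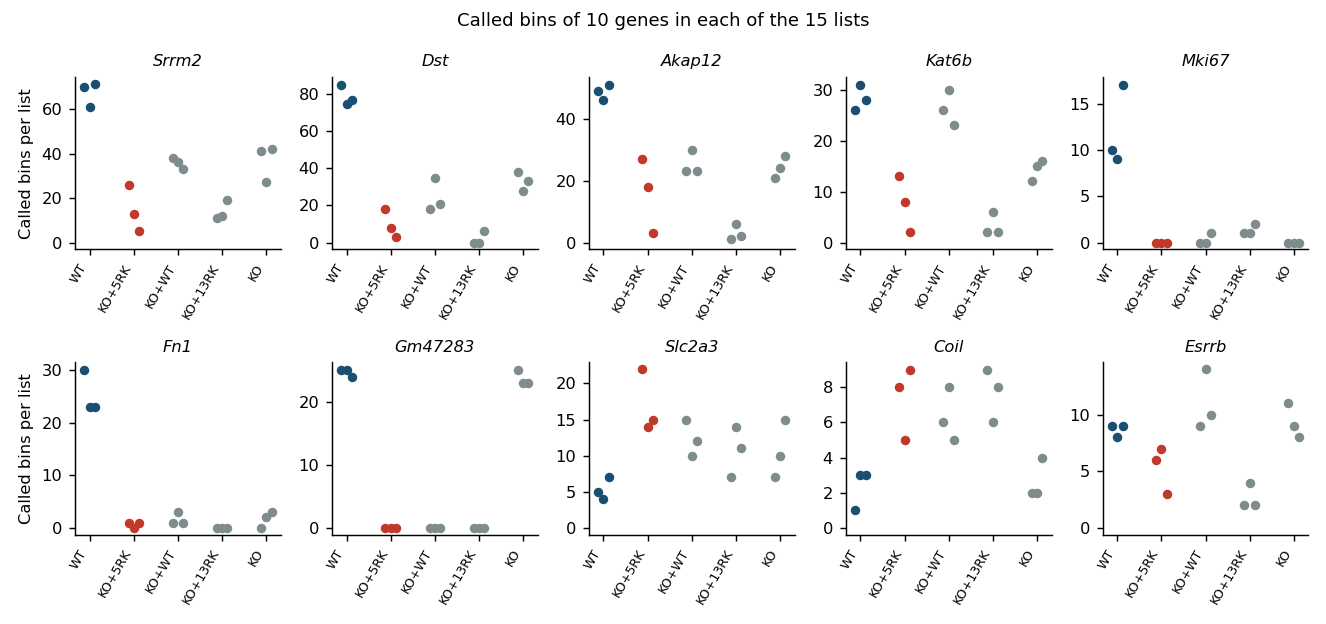
Called bins per list (vertical axes, each from 0) for 10 genes in the 3 lists of each of the 5 lines; points are lists, WT in dark blue, KO+5RK in red and the other lines in grey. KO+WT lies at the WT level for Kat6b and Esrrb and far below it for Mki67, Fn1 and Gm47283, and Slc2a3 and Coil are higher in every KO+5RK list than in any WT list. KO overlaps WT for Esrrb and KO+5RK for Kat6b.

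In the reverse direction, Slc2a3, the glucose transporter GLUT3, had 5, 4 and 7 bins in WT and 22, 14 and 15 in KO+5RK. It was also above WT in KO+WT, with 15, 10 and 12. Coil, the scaffold of Cajal bodies, had 1, 3 and 3 against 8, 5 and 9, with 6, 8 and 5 in KO+WT and 9, 6 and 8 in KO+13RK. For both genes the KO+WT lists lay above the WT lists, without overlap. mt-Nd5, a mitochondrially encoded subunit of complex I, had 2, 1 and 2 against 7, 5 and 7, and the KO lists had 6, 5 and 10. Eef1a1, which brings aminoacyl-tRNA to the ribosome, had 2, 3 and 3 against 8, 4 and 5, with 1, 1 and 3 in KO+WT and 1, 2 and 1 in KO+13RK. Cnpy1, of the Canopy family, had 1 in each WT list and 3, 4 and 4 in KO+5RK. Of the 5, Eef1a1 was the one with no KO+WT list above the highest WT list.

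The gained genes with the highest percentile in KO+5RK were Psma1, Tdrd12, Slc6a7, Trib1, Eif2s3y, Fbxo44, Gm10684, Scn2b, Tbc1d9 and Ric3, each with 1 to 3 bins per KO+5RK list. Psma1, a core subunit of the proteasome, had 1 bin in each, and also 2, 3 and 1 in KO+13RK and 0, 3 and 2 in KO. Trib1, a pseudokinase that guides ubiquitination, had 1 bin in each KO+5RK list and 0 in each of the other 12 lists. Scn2b, a sodium channel subunit, had 1, 2 and 1 bins and likewise 0 in the other 12. Tdrd12, of the piRNA pathway, had 1, 1 and 3, with 0, 3 and 0 in KO. Eif2s3y, the Y-linked gamma subunit of the initiation factor eIF2, had 2, 1 and 1, and 1, 1 and 2 in KO+13RK.

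Single bins at the top of the lost class had WT percentiles of 96.7 to 98.9. In Snrnp48, a protein of the minor spliceosome, the bin chr13:38226940-38227039 lay 674 nt from the gene end and was called in 2 KO+WT lists. In Spag9, a scaffold of JNK signalling, the bin chr11:94125592-94125691 lay 452 nt from the end, and in Acsl1, an acyl-CoA synthetase, chr8:46535538-46535637 lay 464 nt from it. All 3 genes kept other bins in 2 or 3 KO+5RK lists. The bin of Dpysl2, a regulator of microtubules, chr14:66833065-66833164, was in 0 of the 12 lists outside WT, as was that of Gm44686, chr7:73544014-73544113. Tada1, a subunit of the SAGA coactivator complex, lost chr1:166379098-166379197, which 2 KO+WT lists and 2 KO lists called. The bins of Dst, chr1:34180326-34180425, and of Gm20388, chr8:124002842-124002941, were each in 1 KO+WT list and in 0 KO+13RK and KO lists. Of the top gained bins, that of Psma1, chr7:114264607-114264706, lay 107 nt from the gene end and was called in all 3 KO+13RK lists. So was the gained bin of 2310031A07Rik, chr11:46441363-46441462, and that of Eif2s3y, chrY:1028544-1028643, was in 2 of them. The gained bins of Kmt5b, chr19:3815622-3815721 on the plus strand, and Gm16066, chr19:3815616-3815715 on the minus strand, overlap on opposite strands and were in 0 lists of the other 3 lines, so neither can be assigned with certainty. All coordinates are GRCm38.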

How the data were processed

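The m6A immunoprecipitates of chemically fragmented messenger RNA were sequenced as stranded libraries, per the labels' protocols. Per the submitters' processing notes, the build was GRCm38 and the tools included STAR 2.5.3a and kallisto 0.43.0, in roles not named; the sources used here give no peak caller. The authors deposited one list per replicate without a header, each row a bin of 100 nt in an Ensembl gene with an enrichment score, a p-value and a q-value. Every deposited q was at most 0.04999. The scale of the deposited score (0.32 to 5.48 in the 6 lists) is not stated, so it served only to rank or filter bins within a list. Input libraries were not used here. No columns of per-sample values were left unused (0).

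Bins were matched between lists by identical chromosome, start, end and strand. Symbols matched 99.7% of 13765 genes, and 48 bins are listed under more than 1 gene. Distances to gene starts and ends used RefSeq gene spans of GRCm38.p6, matched by symbol, and a bin of a short gene can be near both. Calculations used Python 3.11.15, pandas 2.3.3, numpy 2.4.6, scipy 1.17.1 and matplotlib 3.10.9. Means of 3 lists were compared by the two-sided exact permutation test, adjusted by Benjamini-Hochberg over 5 measures or 9 pairs. Bins and genes were counted, with no test per bin, since 3 lists against 3 cannot reach 0.05. The counting of lost and gained bins was tested on simulated calls with planted losses and gains. The exact tests and the adjustment were checked on small made-up values, and the other steps were not tested in this way. Depth is unknown, so no counting interval is given. The replicate numbers did not pair the lists.

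The comparison, the 17 gene lists and the genes named were chosen with earlier results of these data known. By rule the text names 9 genes always; up to 4 lost and 4 gained members of each list and the 10 lost and 10 gained genes highest in enrichment percentile; of genes in all 6 lists the 10 with the most fewer and the 5 with the most more bins, without overlap; and the top 8 lost and 5 gained bins. A member that the rule would name is not reported here. The alternatives were a q of 0.005, an enrichment score at or above the median, lists of equal length, looser call rules, merged or half-overlapping bins, narrower distances, genes in all 6 lists only, leaving out each replicate, and the replicate number as a block. Leaving out genes wider than 1000000 nt was added after the data were seen. Sequences are RefSeq's, and of 1911 overlapping windows on opposite strands 1911 were reverse complements.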

Additional observations from a re-analysis of the deposited data

How the results depend on the processing

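The direction of the differences in called bins, bins per called gene and the share near gene starts was the same under every alternative run for them. Genes per list reversed at equal length, to 393 more in KO+5RK (exact permutation p = 0.1). The share near gene ends differed by -0.75 percentage points within 1000 nt (exact permutation p = 0.1, lists apart) and by -1.31 at equal length (exact permutation p = 0.3), beside -0.0889 as reported. It moved from -0.377 to 0.382 when 1 replicate was left out and reversed without WT replicate 1 (0.128) and without KO+5RK replicate 1 (0.382). The share near gene starts had an exact permutation p of 0.3 under the enrichment filter, 0.3 without WT replicate 1 and 0.2 without KO+5RK replicate 1.

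Lost bins, 2822 as reported, numbered 1292 with an enrichment score at or above the median, 835 at equal list length, 7408 with 2 or more lists against 0, 5413 with 3 against at most 1, and 1269 in genes of all 6 lists. Gained bins, 125 as reported, numbered 56 at a q of 0.005, 32, 391, 870, 343 and 61 under the same settings in turn. Lost genes, 538 as reported, numbered 190 at equal length, 1202 with 2 or more lists and 1501 with at most 1. Gained genes, 51 as reported, numbered 23 at a q of 0.005, 29 with the enrichment filter, 220 at equal length, 281 and 164. Leaving out 1 list, which loosens the rule by construction, gave 3381 to 4518 lost bins, 184 to 403 gained bins, 733 to 911 lost genes and 85 to 143 gained genes. Merged bins gave 2737 lost and 124 gained, and matching at a half-length overlap 2841 and 129. Without genes spanning over 1000000 nt, chosen after seeing the data, 2743 bins were lost.

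The KO+WT lists called 23.8% of lost bins under the rule of 2 or more lists, and 26.9 to 40.1% with 1 list left out, beside 32.3% as reported. Of 693 values for 77 named genes, 3 reversed: the KO+5RK minus WT difference of Sox2 (0.333) and Fgfr2 (2.33) at equal length, and of Nanog at a q of 0.005 (-1.67). The causes were not tested.

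With the replicate number as a block, the differences stayed as reported (-10385 bins per list, for example), with an exact sign-flip p of 0.25, the smallest that 3 pairs allow, for 4 measures and 1 for the share near gene ends, so no call changed. Lists of the same number did not deviate together: over bins the correlations of their deviations from the line means were -0.000713, 0.00195 and -0.0111. Transcript parts and motif shares over all bins were not run, since no genome of the build was used here. Unknown depth limits every absence of a call.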
